A study of Homo sapiens with 6 samples.

Results

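The 37 genes described here make, use and break down ceramide and sphingosine, and they were chosen by name as rows of a gene count table that held 56478 usable gene symbols. All 37 were found, CERT1 under its older symbol COL4A3BP. They were read in BT20 cells, a human line from a triple negative breast cancer, with basal features, grown in medium with 10% fetal bovine serum. The knockdown cells (shCK5-22, n = 3) carried the construct pLK0-shCK5-425222, a short hairpin RNA vector against cytokeratin 5, and the control cells (shControl, n = 3) carried pLK0-shControl in the same line; the labels name no further treatment. A single hairpin stands for the knockdown, so an effect of cytokeratin 5 loss and any effect of that hairpin on other transcripts cannot be told apart. The labels do not say whether the lines were pools or clones, nor that the replicates came from different cultures. The p-values therefore reflect library-to-library spread alone, and that spread may be technical.

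Sphingolipids begin with serine palmitoyltransferase, which joins serine to a fatty acyl chain in the endoplasmic reticulum. The product is reduced, acylated by a ceramide synthase and desaturated to ceramide, which the cell turns into sphingomyelin or glycosphingolipids, phosphorylates, or cuts to sphingosine. Sphingosine kinases then make sphingosine phosphate (S1P), a lipid that acts through cell-surface receptors and is broken down by a lyase or dephosphorylated back to sphingosine. In epithelial cells ceramide is commonly linked to growth arrest and cell death, and S1P to survival and migration.

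Libraries held 47622067 to 65429616 counts, and 18008 genes passed the filter on low counts. KRT5, which encodes cytokeratin 5 and is the targeted gene, had 21.1, 22.7 and 24.1 CPM (counts scaled by the TMM-adjusted library size) in shCK5-22 libraries, against 230.7, 246.6 and 244.3 CPM in shControl libraries (10.7-fold lower, edgeR quasi-likelihood test, adjusted p = 1.23e-20), so every library matched its label. Of 6 epithelial markers, 3 (KRT19, CDH1 and CLDN7) were lower, and the 6 together had a summed level of 7230 to 7760 CPM in shCK5-22 and 7882 to 8323 CPM in shControl. Of the receptors that define the triple negative class, PGR was near 0, while ESR1 and ERBB2 were measured and both lower, ESR1 at 10.98 to 12.1 CPM in shCK5-22, against 13.8 to 15.4 CPM in shControl, and ERBB2 at 79.96 to 86.2 CPM in shCK5-22, against 118.7 to 122.4 CPM in shControl. The 5 leukocyte markers summed to 0.908 to 1.07 CPM in shCK5-22 and 0.92 to 1.31 CPM in shControl, and the 5 endothelial markers, mostly CDH5, to 19.5 to 31.8 CPM in shCK5-22 and 23.9 to 31.6 CPM in shControl, with PECAM1 lower. Among 6 fibroblast markers PDGFRB and LUM were higher, COL1A1 was lower and PDGFRA was at 0. Their sum, mostly COL1A1, was 28.2 to 29.2 CPM in shCK5-22 and 31.7 to 32.8 CPM in shControl. The part of these shifts in the results below was not tested, and in bulk RNA fewer cells of a type and less RNA per cell cannot be told apart.

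Acid ceramidase (ASAH1), acid sphingomyelinase (SMPD1), ceramide synthase 4 (CERS4), the regulator ORMDL1 and the S1P receptor S1PR3 were lower in shCK5-22 cells. Sphingosine kinase 1 (SPHK1), both S1P phosphatases, sphingomyelin synthase 1 (SGMS1), ceramide kinase (CERK), the non-lysosomal glucosylceramidase (GBA2), sphingomyelinase SMPD2, and the synthesis enzymes KDSR and CERS2 were higher. In all, 31 of the 37 members passed the filter on low counts and could be tested, and 14 of them changed, 9 higher and 5 lower, at an adjusted p under 0.05. That is 45.2% of the members tested, beside 34.2% of all genes tested. By direction, 17.4% of all genes tested were higher and 16.8% lower. The median log2 fold change was 0.03 for the members and -0.01 for all genes, and the median absolute log2 fold change was 0.20 for the members and 0.18 for all genes. Groups did not overlap for 21 of the 31 members, beside 45.1% of all genes. Changes were mostly modest: 4 members, CERS4, S1PR3, ASAH1 and SGPP2, passed the threshold with at least 1.5-fold difference, as did 8.01% of all genes. By mean level, 21 of the 31 lay above the median of all genes tested and 10 did not.

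**Figure D1:**
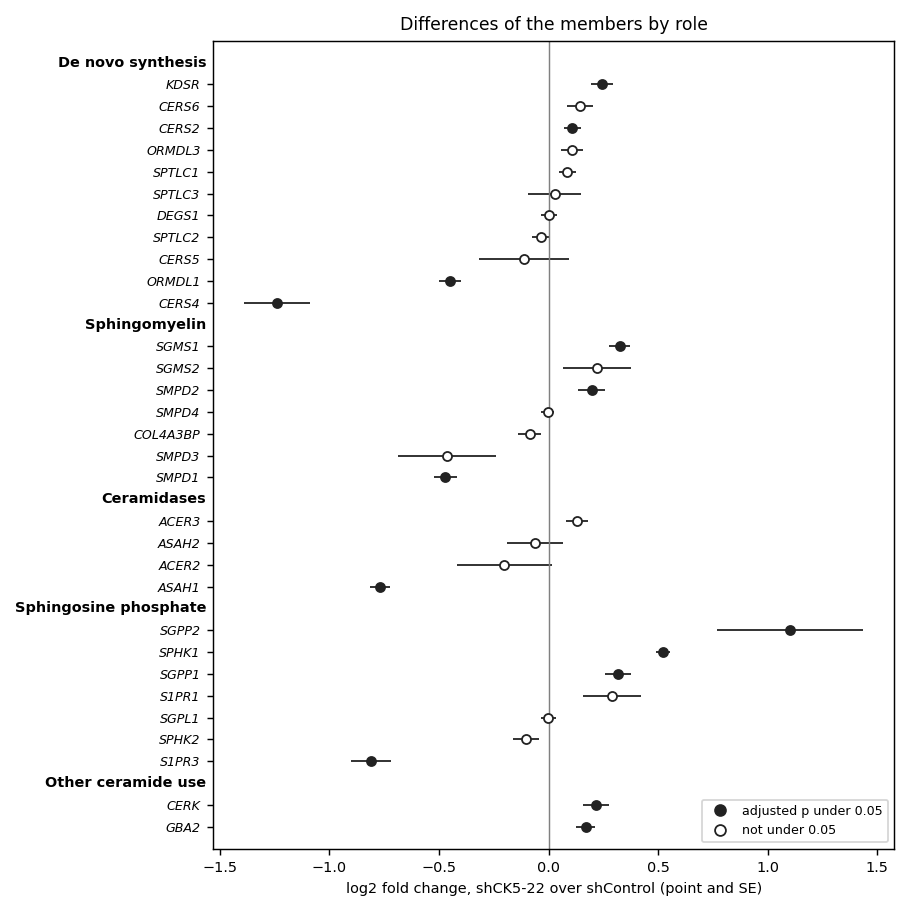
Log2 fold change of the 31 members tested, shCK5-22 over shControl, in rows by role. Points are edgeR estimates with their standard error (n = 3 libraries each), filled where the adjusted p was under 0.05; CERS4 lies farthest to the left at -1.24 and SGPP2 farthest to the right at 1.10.

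The remaining 6 members were not tested. CERS1, ORMDL2 and S1PR2 were listed at 0 in all 6 libraries. CERS3, the synthase of epidermal very long chain ceramides, had 4 to 6 counts per shCK5-22 library and 4 to 14 per shControl library. DEGS2, which makes hydroxylated ceramides of skin and gut, had 7 to 22 counts in shCK5-22 and 0 to 8 in shControl. ACER1, an alkaline ceramidase of the epidermis, had 2 to 7 counts in shCK5-22 and 0 to 4 in shControl. These counts did not pass the filter on low counts, although some lay above the floor of 3 counts (0.0459 to 0.063 CPM), and no fold is given for them. A listed 0 need not mean an absent transcript: CTSD and HEXA, lysosomal genes that most cells use, were also listed at 0 in every library. Exons of GDF1 cover 67.1% of the exon bases of CERS1, and exons of AC023055.1 and DNAJC14 cover 46.4% of those of ORMDL2. For S1PR2 the share under another gene was 2.28%. Protein-coding genes with a share above 50% and up to 90%, where CERS1 falls, were at 0 in 47.8% of cases. With a share above 0 and up to 50%, where ORMDL2 and S1PR2 fall, it was 13.4%, beside 16.5% for genes with none. The part of overlap in these 0 values was not tested.

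De novo synthesis was measured at 11 of its 15 members, of which KDSR and CERS2 rose and CERS4 and ORMDL1 fell. That is 36.4% called, near the 34.2% of all genes tested, with a median log2 fold change of 0.03. The first enzyme, serine palmitoyltransferase, showed no called difference in any subunit. SPTLC1 had 59.8, 60.2 and 59.2 CPM in shCK5-22 and 55.4, 55.2 and 58.2 CPM in shControl (log2 fold change 0.09, SE 0.0397, adjusted p = 0.104), without overlap. SPTLC2, the main catalytic subunit, averaged 67.2 ± 1.81 CPM in shCK5-22 and 68.9 ± 1.33 CPM in shControl (SD, n = 3 each; adjusted p = 0.508). The alternative catalytic subunit SPTLC3 was much less abundant, at 4.16 ± 0.395 CPM in shCK5-22 and 4.08 ± 0.218 CPM in shControl. Per kilobase of exon, SPTLC3 made up 2.86% of the summed level of the 3 subunits in shCK5-22 and 2.87% in shControl.

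KDSR, the reductase of the next step (chromosome 18, 63327726 to 63367510, GRCh38), had 31.5, 32.1 and 33.4 CPM in shCK5-22 libraries, against 26.5, 27.1 and 28.3 CPM in shControl libraries. Every shCK5-22 library was above every shControl library, a difference of 18.4% (log2 fold change 0.24, SE 0.0514, adjusted p = 0.00077). DEGS1, the desaturase that completes ceramide, had the highest level per kilobase of all members, and its 83.7, 80.6 and 79.4 CPM in shCK5-22 overlapped the 82.1, 80.0 and 81.2 CPM in shControl (log2 fold change 0.003, SE 0.0357).

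The ceramide synthases, which set the acyl chain length of ceramide, differed among themselves. CERS4 (chromosome 19, 8206736 to 8262421), whose enzyme uses long and very long acyl chains, had 1.44, 1.89 and 1.97 CPM in shCK5-22, against 4.04, 4.05 and 4.38 CPM in shControl. These values rest on 94 to 113 counts per shCK5-22 library and 194 to 276 per shControl library, and the groups were well apart. The level was 2.36-fold lower in shCK5-22 (log2 fold change -1.24, SE 0.15, adjusted p = 1.19e-06), the largest fall among the members. CERS2, the synthase of very long chain ceramides (chromosome 1, 150960583 to 150975004), is the most abundant of the family and had 95.8, 95.9 and 89.1 CPM in shCK5-22, against 88.8, 85.1 and 86.8 CPM in shControl. Its rise of 7.82% (adjusted p = 0.0273) lost its call without shCK5-22 replicate 1 (0.059), shCK5-22 replicate 2 (0.0975), shControl replicate 2 (0.12) or shControl replicate 3 (0.0898), and with library size as the only scaling (0.0721); over the alternatives the adjusted p ran from 0.0114 to 0.12. In addition, 37.2% of the exon bases of CERS2 lie under exons of SETDB1 or AL590133.2, and the use of strand in counting is not given, so its count is uncertain.

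CERS6, which favours palmitoyl chains, averaged 24.01 ± 0.612 CPM in shCK5-22 and 21.8 ± 1.14 CPM in shControl without overlap (SD, n = 3 each), and its adjusted p was 0.0625. It passed without shControl replicate 1 (0.0417); over the alternatives the adjusted p ran from 0.0417 to 0.244, and its count is uncertain too, since the antisense gene CERS6-AS1 covers 41.4% of its exon bases. CERS5, another palmitoyl-preferring synthase, stood at 1.21 to 1.51 CPM in shCK5-22 and 1.23 to 1.79 CPM in shControl (adjusted p = 0.727). Per kilobase of exon, CERS2 supplied 83.5% ± 0.639 of the summed level of the 5 measured synthases in shCK5-22 and 81.4% ± 0.0894 in shControl, and CERS6 supplied 13.7% ± 0.19 in shCK5-22 and 13.1% ± 0.498 in shControl. CERS4 supplied 1.81% ± 0.329 in shCK5-22 and 4.45% ± 0.234 in shControl (SD, n = 3 each). The order of the family by level, CERS2, CERS6, CERS4, CERS5, CERS3, was thus the same in both groups.

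**Figure D2:**
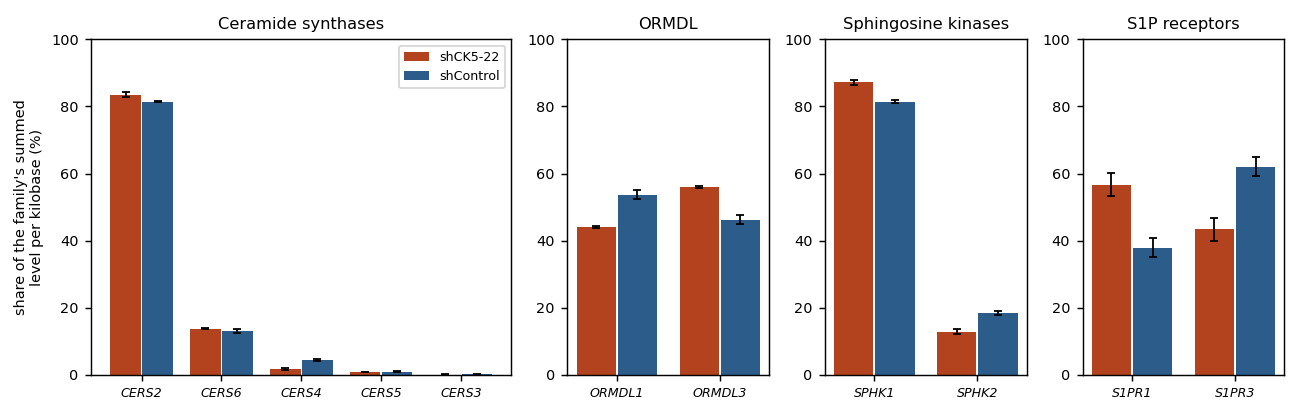
Share of each gene in the summed level per kilobase of exon of its family (bars, mean of 3 libraries; error bars, SD), with shCK5-22 left of shControl. Families hold members only, so the S1P receptors are S1PR1 and S1PR3 without S1PR4 and S1PR5. CERS2 held 83.5% and 81.4% of the ceramide synthase level, while ORMDL1 held 44.0% of its pair in shCK5-22 and 53.7% in shControl.

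ORMDL proteins bind serine palmitoyltransferase and restrain it when ceramide is plentiful. ORMDL1 (chromosome 2, 189770323 to 189784371) had 28.4, 27.95 and 26.4 CPM in shCK5-22, against 38.3, 38.2 and 36.7 CPM in shControl. No libraries of the groups overlapped, and the level fell by 0.45 on the log2 scale (SE 0.0499, adjusted p = 3.55e-07). ORMDL3 had 34.2, 33.4 and 32.0 CPM in shCK5-22 and 30.1, 30.6 and 31.8 CPM in shControl, with a log2 fold change of 0.11 (SE 0.0498) that did not pass (adjusted p = 0.106). The count ratio of ORMDL1 to ORMDL3 was 0.831, 0.837 and 0.823 in shCK5-22 libraries, against 1.27, 1.25 and 1.16 in shControl libraries. It was one of 8 ratios compared between members, with pairs picked after their values were known. In none of the 8 did the groups overlap, and the exact two-sided permutation test over libraries gave p = 0.1 (adjusted 0.1) for each, the smallest value that 3 libraries against 3 allow, so it cannot pass 0.05. Per kilobase, ORMDL1 was the more abundant of the pair in all shControl libraries and ORMDL3 in all shCK5-22 libraries.

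All 7 genes of sphingomyelin turnover and ceramide transfer could be tested. SGMS1 and SMPD2 rose, SMPD1 fell, and the other 4 did not pass. That is 42.9% called, beside 34.2% of all genes tested, with a median log2 fold change of -0.00366. SGMS1, the Golgi enzyme that makes sphingomyelin from ceramide (chromosome 10, 50305586 to 50625163), and SMPD1, the lysosomal enzyme that splits sphingomyelin to ceramide (chromosome 11, 6390431 to 6394998), lay on opposite sides of 0. Their promoters, from 250 bases before to 50 bases after a gene start in RefSeq on GRCh38.p14, are shown because these opposite steps moved apart and each gene has a single entry. Capitals mark the GC box GGGCGG or its reverse complement.
SGMS1, chr10:50623907-50624206, minus strand: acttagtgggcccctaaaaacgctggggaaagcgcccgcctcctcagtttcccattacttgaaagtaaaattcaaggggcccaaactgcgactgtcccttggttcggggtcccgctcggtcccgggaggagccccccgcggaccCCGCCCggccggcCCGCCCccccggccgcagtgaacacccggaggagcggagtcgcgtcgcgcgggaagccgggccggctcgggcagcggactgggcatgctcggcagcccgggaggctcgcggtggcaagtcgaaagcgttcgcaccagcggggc
SMPD1, chr11:6390224-6390523, plus strand: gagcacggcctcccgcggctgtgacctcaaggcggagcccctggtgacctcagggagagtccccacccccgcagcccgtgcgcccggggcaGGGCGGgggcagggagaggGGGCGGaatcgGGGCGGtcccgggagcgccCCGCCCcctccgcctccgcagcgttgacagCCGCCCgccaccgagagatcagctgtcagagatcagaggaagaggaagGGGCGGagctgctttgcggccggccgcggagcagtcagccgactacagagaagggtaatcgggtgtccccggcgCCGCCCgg
The window of SGMS1 held 2 GC boxes and that of SMPD1 held 7, a motif present in 45.0% of 35116 RefSeq promoters of this length. The E-box CACGTG, the AP-1 motif TGANTCA and the TEAD motif CATTCC, searched on both strands, were in neither window and in 7.26%, 7.71% and 14.0% of all promoters. Of the 37 members, 18 matched 1 promoter entry, 12 matched several and 7 matched none. A GC box was in 15 of the 18 single entries (83.3%), an AP-1 motif in 1, and an E-box or TEAD motif in 0.

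SGMS1 had 53.1, 48.4 and 48.3 CPM in shCK5-22, against 40.7, 39.8 and 39.4 CPM in shControl. All shCK5-22 libraries were higher, by 25.2% on average (log2 fold change 0.32, SE 0.0469, adjusted p = 1.28e-05). SGMS2, the plasma membrane synthase, was scarce, with 2.71, 3.46 and 3.31 CPM in shCK5-22 and 3.18, 2.71 and 2.27 CPM in shControl (adjusted p = 0.303). SMPD1 had 22.2, 22.9 and 22.9 CPM in shCK5-22, against 30.6, 32.4 and 31.3 CPM in shControl, and no library of one group reached the other. Its level fell by 0.47 on the log2 scale (SE 0.0522, adjusted p = 3.63e-07). The count ratio of SGMS1 to SMPD1 was 2.39, 2.12 and 2.11 in shCK5-22 libraries, against 1.33, 1.23 and 1.26 in shControl libraries, a 1.73-fold higher mean ratio.

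Among the neutral sphingomyelinases only SMPD2 passed. SMPD2 (chromosome 6, 109440763 to 109443919), a membrane enzyme, had 27.9968, 28.3 and 25.4 CPM in shCK5-22, against 25.3, 22.1 and 23.99 CPM in shControl. The rise of 14.6% (adjusted p = 0.0164) just separated the groups and lost its call without shCK5-22 replicate 2 (0.0581), shControl replicate 2 (0.116) or shControl replicate 3 (0.0508); over the alternatives the adjusted p ran from 0.00482 to 0.116. PPIL6 exons cover 20.3% of its exon bases. SMPD3, the Golgi and plasma membrane form linked to exosome release, stood at 0.797, 0.903 and 1.08 CPM in shCK5-22 and 1.498, 1.196 and 1.14 CPM in shControl, a log2 fold change of -0.46 (SE 0.223) that did not pass (adjusted p = 0.121). SMPD4 averaged 209.8 ± 1.22 CPM in shCK5-22 and 210.3 ± 5.23 CPM in shControl (adjusted p = 0.944), but 16.6% of its 50-base transcript windows occur at another locus, mostly AC073869.1, so its count is uncertain. COL4A3BP, the protein that carries ceramide from the endoplasmic reticulum to the Golgi, averaged 32.5 ± 1.03 CPM in shCK5-22 and 34.5 ± 1.63 CPM in shControl (SD, n = 3 each; adjusted p = 0.21).

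Ceramidases, which cut ceramide to sphingosine, had 4 members tested of 5, and only ASAH1 passed. That is 25% called, beside 34.2% of all genes tested, with a median log2 fold change of -0.13. ASAH1, the acid ceramidase of lysosomes (chromosome 8, 18055992 to 18084998), had 29.7, 29.1 and 30.0 CPM in shCK5-22, against 51.3, 49.1 and 50.9 CPM in shControl. The highest shCK5-22 library lay far under the lowest shControl library, and the level was 1.7-fold lower (log2 fold change -0.77, SE 0.0452, adjusted p = 2.26e-11). ASAH1 had the lowest adjusted p of all members and kept its call under all 15 alternatives, with log2 fold changes of -0.79 to -0.76. ACER3, the alkaline ceramidase of the Golgi and endoplasmic reticulum, had 34.0, 31.2 and 32.1 CPM in shCK5-22 and 29.4, 30.1 and 29.5 CPM in shControl. Its log2 fold change of 0.13 (SE 0.0508) did not pass (adjusted p = 0.0538), although it did with upper quartile scaling (0.0441), with the replicate number as a block (0.0441) and without shCK5-22 replicate 2 (0.0351); over the alternatives the adjusted p ran from 0.0351 to 0.191.

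The count ratio of ASAH1 to ACER3 was 0.873, 0.93 and 0.936 in shCK5-22 libraries, against 1.75, 1.63 and 1.72 in shControl libraries. ACER2, a Golgi ceramidase, ranged from 1.19 to 2.04 CPM in shCK5-22 and from 1.47 to 2.41 CPM in shControl (adjusted p = 0.527), and 12.2% of its windows occur in AC017081.1. ASAH2, the neutral ceramidase, had 3.75 to 5.03 CPM in shCK5-22 and 4.20 to 4.98 CPM in shControl (adjusted p = 0.755), but 52.1% of its windows are shared with ASAH2B, so it cannot be read apart from that copy.

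**Figure D3:**
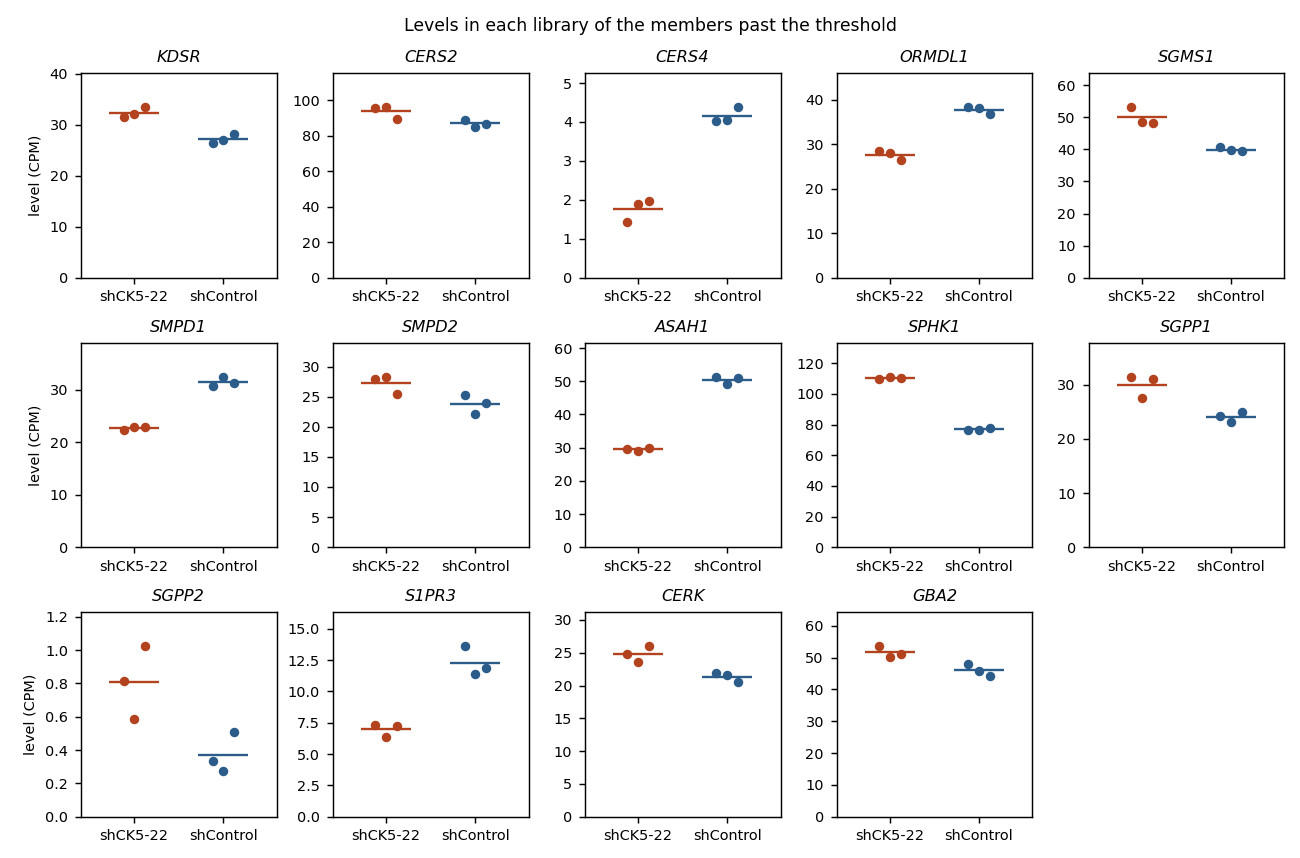
Level (CPM, linear axes from 0) of the 14 members that passed the threshold in each library (points), with group means (lines), shCK5-22 left of shControl. The groups do not overlap in any panel; ASAH1 sits at 29.1 to 30.0 CPM in shCK5-22 and 49.1 to 51.3 CPM in shControl, and SPHK1 at 109.7 to 111.1 CPM in shCK5-22 and 76.4 to 77.6 CPM in shControl.

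In the sphingosine phosphate branch 7 of 8 members were tested, and SPHK1, SGPP1 and SGPP2 rose while S1PR3 fell. That is 57.1% called of only 7 genes, beside 34.2% of all genes tested, with a median log2 fold change of 0.29. SPHK1, the cytoplasmic kinase that makes S1P (chromosome 17, 76376584 to 76387860), had 109.7, 111.1 and 110.1 CPM in shCK5-22, against 76.6, 76.4 and 77.6 CPM in shControl. Libraries within a group were nearly level, and the groups were far apart. The rise was 1.43-fold (log2 fold change 0.52, SE 0.0328, adjusted p = 6.58e-11), between 0.51 and 0.53 on the log2 scale over the alternatives. SPHK2, the isoform of nucleus and mitochondria, had 22.8, 20.6 and 22.9 CPM in shCK5-22 and 24.7, 23.1 and 23.6 CPM in shControl (log2 fold change -0.10, SE 0.0596, adjusted p = 0.194). Of its exon bases, 22.3% lie under other genes. The count ratio of SPHK1 to SPHK2 was 4.80, 5.39 and 4.82 in shCK5-22 libraries, against 3.10, 3.32 and 3.29 in shControl libraries. Per kilobase, SPHK1 made up 87.2% ± 0.727 of the pair in shCK5-22 and 81.5% ± 0.562 in shControl (SD, n = 3 each).

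SGPL1, the lyase that removes S1P for good, stood at 100.7, 97.6 and 100.9 CPM in shCK5-22 and 97.9, 100.6 and 100.7 CPM in shControl, a log2 fold change of -0.000441 (SE 0.0332, adjusted p = 0.994). With SPHK1 higher beside it, the count ratio of SPHK1 to SGPL1 was 1.09, 1.14 and 1.09 in shCK5-22 libraries and 0.783, 0.76 and 0.771 in shControl libraries. SGPP1, the main phosphatase that returns S1P to sphingosine (chromosome 14, 63684214 to 63728039), had 31.5, 27.5 and 31.1 CPM in shCK5-22, against 24.3, 23.1 and 24.9 CPM in shControl. All shCK5-22 libraries were higher, by 24.4% on average (log2 fold change 0.32, SE 0.0593, adjusted p = 0.000253). SGPP2, the inducible phosphatase (chromosome 2, 222424517 to 222560948), had a low level, with 0.813, 0.585 and 1.02 CPM in shCK5-22 and 0.333, 0.276 and 0.507 CPM in shControl, and was 2.15-fold higher without overlap (log2 fold change 1.10, SE 0.335, adjusted p = 0.0139). It rests on 35 to 54 counts per shCK5-22 library and 16 to 32 per shControl library. The call was lost without shCK5-22 replicate 3 (0.0812) or shControl replicate 2 (0.0654); over the alternatives the adjusted p ran from 0.00524 to 0.0812.

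Among the members, receptors for S1P were measured at S1PR1 and S1PR3. Of the companion genes, S1PR5 averaged 1.36 CPM in shCK5-22 and 1.52 CPM in shControl (adjusted p = 0.579). S1PR4 averaged 0.399 CPM in shCK5-22 and 0.465 CPM in shControl (adjusted p = 0.746). S1PR3 (chromosome 9, 88990863 to 89005010), a receptor that signals through several G proteins, had 7.33, 6.37 and 7.27 CPM in shCK5-22, against 13.6, 11.4 and 11.9 CPM in shControl. Every shCK5-22 library lay below every shControl library. S1PR3 was 1.75-fold lower in shCK5-22 (adjusted p = 4.02e-07; log2 fold change -0.81, SE 0.0902). S1PR1, a Gi-coupled receptor best known from lymphocytes and endothelium, had 3.68, 3.68 and 3.18 CPM in shCK5-22 and 2.79, 2.97 and 2.85 CPM in shControl. All shCK5-22 libraries were higher, but the log2 fold change of 0.29 (SE 0.133) did not pass (adjusted p = 0.0992). The count ratio of S1PR3 to S1PR1 was 1.99, 1.73 and 2.29 in shCK5-22 libraries, against 4.87, 3.82 and 4.16 in shControl libraries. Per kilobase, S1PR3 made up 43.4% ± 3.4 of the pair in shCK5-22 and 62.1% ± 2.88 in shControl (SD, n = 3 each). These shares rest on annotated exon lengths of 13.578 kb for S1PR3 and 5.223 kb for S1PR1. By counts S1PR3 was the higher of the pair in every library, so the order within the pair depends on the annotation.

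The remaining ceramide-using genes, CERK and GBA2, both rose. With only 2 genes this is no trait of a group, since 34.2% of all genes tested were called and 17.4% were higher. CERK, the kinase that makes ceramide phosphate (chromosome 22, 46684411 to 46738261), had 24.7, 23.6 and 25.96 CPM in shCK5-22, against 22.0, 21.5 and 20.5 CPM in shControl (log2 fold change 0.22, SE 0.0582, adjusted p = 0.00617). GBA2, the non-lysosomal enzyme that frees ceramide from glucosylceramide (chromosome 9, 35736866 to 35749228), had 53.5, 50.3 and 51.1 CPM in shCK5-22, against 47.9, 45.8 and 44.3 CPM in shControl (log2 fold change 0.17, SE 0.0446, adjusted p = 0.0053). In both, the lowest shCK5-22 library was above the highest shControl library, by a small margin.

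**Figure D4:**
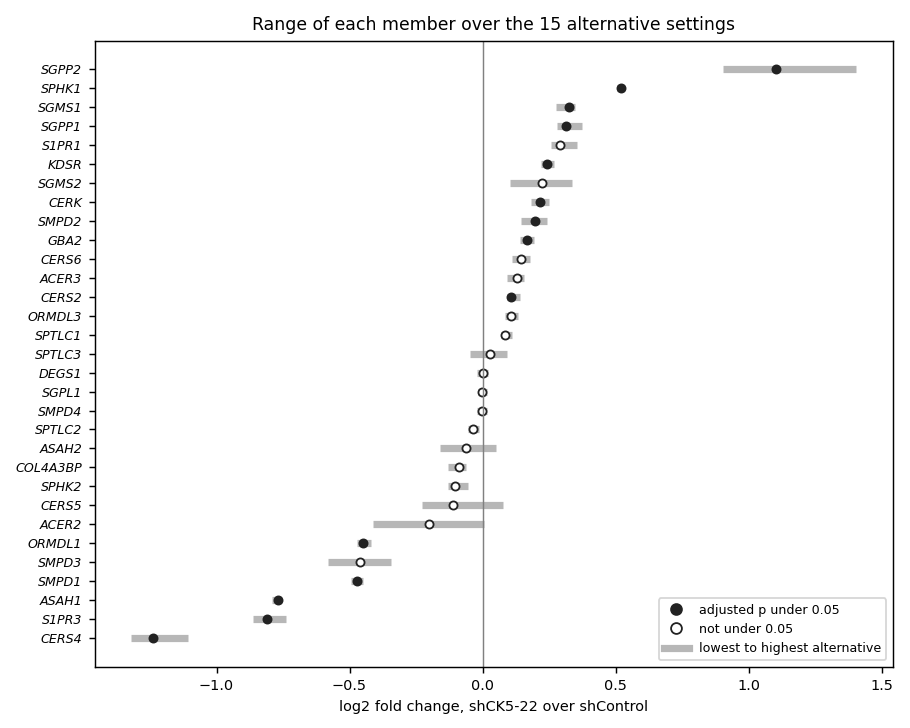
Log2 fold change of each of the 31 members tested, shCK5-22 over shControl (points, filled where the adjusted p was under 0.05), with the lowest to highest value over the alternative settings (grey bars). The bar of SPHK1 runs from 0.51 to 0.53 and that of CERS4 from -1.32 to -1.11, while bars that cross 0 belong to members that did not pass, such as SPTLC3 and ASAH2.

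By level per kilobase of exon, DEGS1, SMPD4, CERS2, SPHK1, SGPL1 and SMPD2 were the top 6 members in both groups, with 32.3, 28.4, 20.2, 24.98, 13.3 and 13.5 CPM per kilobase in shCK5-22 and 32.2, 28.5, 18.7, 17.4, 13.3 and 11.8 CPM per kilobase in shControl. In this order SPHK1 stood above CERS2 in shCK5-22 and below it in shControl, while SGPL1 and SMPD2 overlapped in shCK5-22 and did not in shControl. SMPD1 ranked 11 in shCK5-22 and 7 in shControl, and ORMDL1 ranked 14 in shCK5-22 and 9 in shControl. Ranks between genes depend on the annotated exon lengths. Replicate spread was small for members of at least 10 CPM, with a median coefficient of variation of 3.15% in shCK5-22 and 2.81% in shControl over 21 members. Among the 10 tested members under 10 CPM it was 13.6% in shCK5-22 and 12.2% in shControl, so differences as small as those of CERS2 or GBA2 could not be read for them.

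Other genes of the pathway, 52 written down by role with 42 tested, changed in 16 cases, 12 higher and 4 lower. That is 38.1% called, near the 34.2% of all genes tested (17.4% higher and 16.8% lower). Glycosphingolipid synthesis had 4 of 9 tested genes higher (44.4% called, beside the same 34.2% of all genes), and the other 5 did not pass. ST3GAL5, which makes the ganglioside GM3, had 5.37, 4.68 and 5.56 CPM in shCK5-22, against 1.79, 1.47 and 1.52 CPM in shControl. Its rise (log2 fold change 1.71, SE 0.141, adjusted p = 4.45e-09) was larger than that of any of the 31 members tested. B3GALNT1, the globoside synthase, had 3.33, 2.81 and 2.82 CPM in shCK5-22, against 2.33, 1.92 and 1.74 CPM in shControl (log2 fold change 0.59, adjusted p = 0.00612). The other 2, named after their values were seen, were UGCG and UGT8, which add the first glucose or galactose to ceramide. UGCG had 180.6, 176.2 and 172.4 CPM in shCK5-22, against 126.1, 132.1 and 132.5 CPM in shControl (log2 fold change 0.44, adjusted p = 7.47e-10). UGT8 rose by 0.32 on the log2 scale (adjusted p = 0.00182).

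Of the lysosomal breakdown genes, NEU1, a sialidase, had 113.3, 117.8 and 120.5 CPM in shCK5-22, against 98.7, 96.8 and 98.8 CPM in shControl. Every shCK5-22 library was higher (log2 fold change 0.26, adjusted p = 3.8e-06). PSAP, the precursor of the saposin activators, was named after its values were seen, averaged 594.6 CPM in shCK5-22 and 539.9 CPM in shControl, and rose by 0.14 (adjusted p = 0.000373). These proteins share their compartment with ASAH1 and SMPD1, whose log2 fold changes were -0.77 and -0.47. Some genes of the lysosomal list are not given, so NEU1 and PSAP do not stand for that list or for lysosomal genes in general.

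Of 9 genes of S1P transport and related steps, 2 rose and 1 fell (33.3% called, close to the 34.2% of all genes). SPNS2, the exporter of S1P, had 22.9, 23.1 and 20.2 CPM in shCK5-22, against 16.4, 17.4 and 18.9 CPM in shControl (log2 fold change 0.33, SE 0.0684, adjusted p = 0.000645). PLPP2, a phosphatase of the cell surface that also acts on S1P, fell by 0.21 (adjusted p = 0.00128). Among acyl chain elongases and related genes, 1 of 7 tested rose and 2 fell (42.9% called, beside 34.2% of all genes). ELOVL6, which extends palmitate, fell by 0.23 (adjusted p = 6.98e-05). ELOVL7, with overlapping groups, had a log2 fold change of 0.21 (adjusted p = 0.0292). The ELOVL7 call was lost without shCK5-22 replicate 1 (0.148), shCK5-22 replicate 3 (0.0544), shControl replicate 2 (0.118) or shControl replicate 3 (0.148), and with library size as the only scaling (0.061); over the alternatives the adjusted p ran from 0.00793 to 0.148. In the last list, of lipid transfer and other genes, 2 of 7 tested rose (28.6% called, beside 34.2% of all genes). GLTP, the glycolipid transfer protein, had 71.5, 70.0 and 70.8 CPM in shCK5-22, against 56.3, 61.5 and 58.1 CPM in shControl (log2 fold change 0.27, adjusted p = 1.85e-05). VAPA, an anchor for the ceramide carrier, rose by 0.11 (adjusted p = 0.0134), a call lost without shCK5-22 replicate 2 (0.0875), shControl replicate 1 (0.0682) or shControl replicate 3 (0.0773); over the alternatives the adjusted p ran from 0.00236 to 0.0875.

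**Figure D5:**
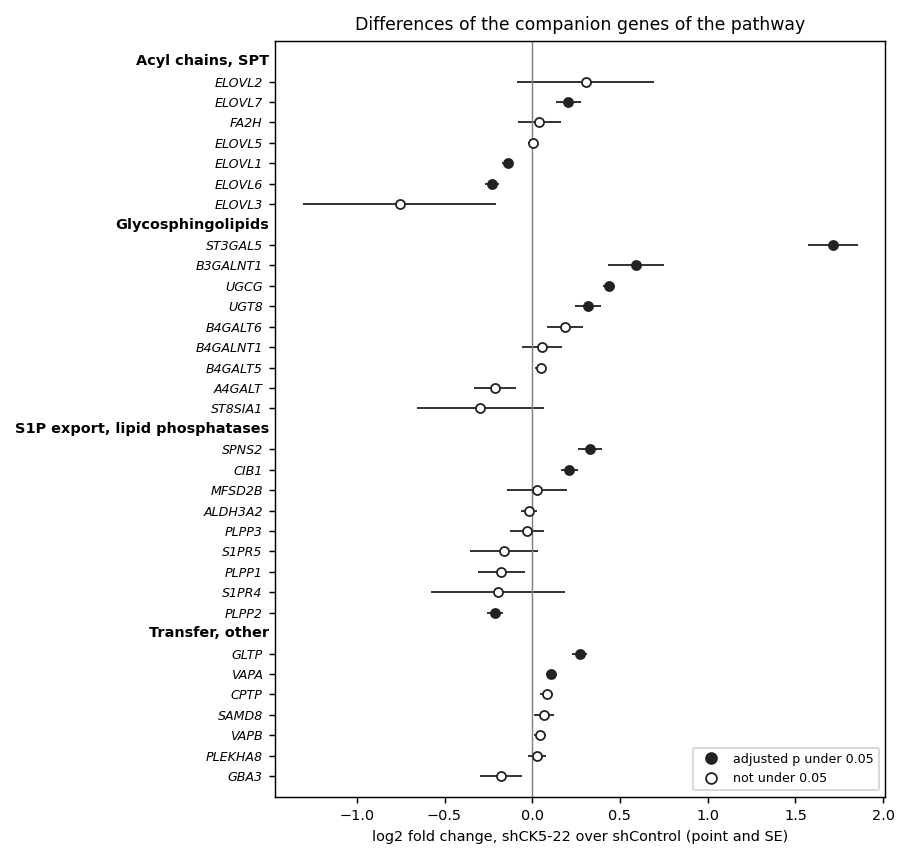
Log2 fold change of 32 companion genes of the pathway, shCK5-22 over shControl, in rows by role, without the lysosomal breakdown genes (points with standard error, n = 3 libraries each, filled where the adjusted p was under 0.05). ST3GAL5 stands farthest to the right at 1.71. Of the 32 points 12 are filled, 9 of them to the right of 0. Of all genes tested 34.2% were called, 17.4% higher and 16.8% lower.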

How the data were processed

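RNA of 6 BT20 libraries was measured. The authors deposited whole-number counts per gene symbol, not normalized. Per the submitters' processing notes, cutadapt, STAR, SAMtools and Cufflinks were used with the build GRCh38; the sources used here do not give the counting tool, annotation, strand setting or treatment of reads with several matches. Between 86.7% and 89.1% of counts from 1 to 20 were even, as arises when both mates of a pair are counted, in which case counting error is larger than the counts imply; the cause was not tested. Of 56505 rows, 27 that held a date in place of a symbol (0.167% to 0.175% of counts) were left out.

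Groups came from the sample titles. The fit used edgeR 4.0.16 (R 4.3.3): TMM, filterByExpr, robust quasi-likelihood test, two-sided, Benjamini-Hochberg over 18008 genes, threshold 0.05. The code was also run on simulated counts with far fewer changed genes than were called here. That run does not give the error rate in these data. The biological coefficient of variation was 5.01%. CPM uses TMM-scaled library sizes, and the standard error (SE) was derived from the fold change and the F statistic. Unless another tool is named, every adjusted p comes from this fit. Loci, exon lengths and shared 50-base windows come from GENCODE release 29, and exon overlap was counted on both strands. An exon length counts every annotated exon base of a gene over all its transcripts, so levels per kilobase depend on that annotation. The permutation tests used scipy 1.17.1. The floor of 3 counts covers counting error only.

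The members, the lists and the pairs were chosen with earlier results of these data known. Named genes are KRT5, all members and, of each companion list, the 2 called genes with the largest change. Some genes of the lysosomal list are not reported here. DESeq2 1.42.0, limma-voom (limma 3.58.1), other scalings, filters and thresholds, a replicate block and leaving out each library were the alternatives.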

Additional observations from a re-analysis of the deposited data

How the results depend on the processing

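Of the 14 members called, 11 kept their call under each of the 15 alternatives that gave a value, and CERS2, SMPD2 and SGPP2 lost theirs under at least 1. Among the 11, CERK and GBA2 came close to losing theirs, with a highest adjusted p over the alternatives of 0.0489 and 0.0498. The count of members called was 9 higher and 5 lower in the analysis as reported. Leaving out 1 library gave 6 to 10 members higher and 5 lower each time, and 2519 to 3098 genes higher and 2391 to 3087 lower over all genes, beside 3134 and 3019. At an adjusted p threshold of 0.01, 6 members were higher and 5 lower, beside 2245 higher and 2137 lower of all 18008 genes tested. Whether the replicate number pairs the libraries was not settled, since a correlation over all genes can miss an effect shared by some genes. Deviations of same-numbered libraries had correlations of 0.0164, 0.0517 and -0.00678, and not every library correlated best with its own number. With the replicate block, 11 members were higher and 5 lower, and 3456 and 3287 of all genes. CERS6 and ACER3 then passed (adjusted p = 0.0457 and 0.0441), and no other call among the members changed.

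Sign changes were confined, among the results computed, to members that did not pass. SGPL1 gave a log2 fold change of 0.000604 with RLE scaling, 0.00541 with upper quartile scaling and 0.000469 with DESeq2. DEGS1 gave -0.011 with library size only and -0.00572 with the filter of at least 1 CPM, and SMPD4 gave 0.00207 with upper quartile scaling. Without 1 library the ranges were -0.0485 to 0.093 for SPTLC3, -0.227 to 0.0752 for CERS5, -0.019 to 0.0193 for DEGS1, -0.0226 to 0.016 for SMPD4, -0.16 to 0.0511 for ASAH2, -0.413 to 0.00700 for ACER2 and -0.0184 to 0.0149 for SGPL1. With at least 1 CPM in 3 libraries SGPP2 was not tested. Depth limits CERS3, DEGS2, ACER1 and SGPP2, which rest on few counts.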

Other observations

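Of the 52 companion genes, 7 were listed at 0 in all 6 libraries: SPTSSA, ELOVL4, B3GNT5, GLA, HEXA, CTSD and ENPP7. Among 18907 protein-coding genes matched to 1 GENCODE locus, 16.4% were listed at 0 throughout. The share was 16.5% of 10778 genes with no exon base under another gene, 13.4% of 7510 genes with up to 50%, 47.8% of 448 genes with more than 50% and up to 90%, and 63.7% of 171 genes with more than 90%. SPTSSA had no exon base under another gene in that annotation.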
